A study of Mus musculus with 12 samples.

Results

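The genes described here are 10 core components of the N6-methyladenosine (m6A) pathway of messenger RNA, chosen by name: 4 writers (Mettl3, Mettl14, Wtap and Virma), 4 readers (Ythdf1, Ythdf2, Ythdf3 and Ythdc1) and 2 erasers (Fto and Alkbh5). All 10 were among the 10607 genes of a table of normalized ribosome profiling values, and among the 55487 genes of a table of RNA-seq counts, from mouse liver. METTL3 is the catalytic subunit of the writer complex, METTL14 is its partner, and WTAP and VIRMA hold and place the complex on transcripts. The YTHDF proteins bind m6A in the cytoplasm, where they act on mRNA decay and translation, while YTHDC1 binds m6A in the nucleus. FTO and ALKBH5 are demethylases that remove the mark, and FTO also acts on a related mark beside the mRNA cap. METTL5 is a different enzyme, which places m6A on 18S ribosomal RNA, and m6A itself was not measured in the files described here.

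Livers of 3 wild-type (WT) mice and 3 Mettl5 knockout (KO) mice were compared, with 1 mouse of each genotype in each of 3 litters. In the KO mice, floxed exon 2 of Mettl5 was deleted in the whole body by a CMV-Cre transgene, so the deletion was not limited to the liver or to 1 cell type. The allele was made in stem cells of a C57BL/6 and 129S6 hybrid, with a later backcross to B6, and the study used both sexes and a range of ages without giving those of these 6 mice. Each frozen liver was lysed with 150 µg/mL cycloheximide, which holds ribosomes on their transcripts, and gave 2 libraries, an input library that measures transcript abundance and one made from ribosome-protected fragments (RPFs). Translation efficiency (TE) is the RPF level relative to the input level.

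Input libraries held 8326325 to 11825643 counted read pairs, of which 45.8% to 63.8% came from the 18S rRNA gene, and RPF libraries held 4623826 to 9184242 reads over the genes of the table. RNA of hepatocytes dominated, with 6 hepatocyte markers summing to 18782 to 38841 CPM (counts scaled to the library total), while marker lists of 6 other cell types each summed to between 2.36 and 226 CPM. Every list, that of hepatocytes included, reached a higher sum in KO livers than in WT. For hepatocytes the highest sum was 38841 CPM in KO livers and 26275 CPM in WT, and the lowest 18782 and 22006 CPM. The library total includes the 18S reads, so CPM also depends on their share. The Kupffer, endothelial and stellate cell lists reached 175, 226 and 147 CPM in KO livers and 93.4, 131 and 69.1 CPM in WT. Their lowest sums were 63.5, 96.0 and 60.2 CPM in KO livers and 82.3, 88.7 and 58.5 CPM in WT. The part of these cell types in the results was not tested. In bulk tissue, fewer cells of a type and less RNA per cell cannot be told apart. The targeted gene, Mettl5, had 67, 56 and 103 RPF reads in the WT mice and 12, 9 and 10 in the KO mice, so that its RPF level was lower in 3 of 3 litters (log2 change −2.64, SE 0.36, adjusted p by limma 0.00504). Without KO mouse 2 this change was −2.44 and its limma adjusted p was 0.0522. The input log2 change of Mettl5 was −1.59 (SE 0.46, edgeR adjusted p = 0.999), on 12 to 21 input counts per WT mouse. Its TE change was −1.16 (SE 0.51, limma adjusted p = 0.998). Neither the input test nor the TE test called the targeted gene, so a gene without a call there may still have changed.

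Translation starts at an AUG whose neighbours influence how well the scanning ribosome recognises it, so the start sites are shown for the members whose TE stood highest or lowest in WT liver and for the 3 YTHDF paralogs. Each line gives 20 bases of the sense strand of the chosen transcript in GENCODE M21 (mm10), with the start codon in capitals.
Mettl3: ctgggagctaggATGtcgga
Fto: tttagtagcagcATGaagcg
Ythdf1: tgttcatgaagcATGtcggc
Ythdf2: gatccgagagccATGtcggc
Ythdf3: ttacggtgaagaATGtcagc
Alkbh5: ttggcgggggccATGgcggc
Wtap: tcggggtgcaagATGaccaa
These start codons lie at chr14:52304985-52304987 on the minus strand for Mettl3, chr8:91313576-91313578 on the plus strand for Fto, chr2:180920708-180920710 on the minus strand for Ythdf1 and chr4:132211924-132211926 on the minus strand for Ythdf2. Those of Ythdf3, Alkbh5 and Wtap lie at chr3:16183497-16183499 on the plus strand, chr11:60538423-60538425 on the plus strand and chr17:12985943-12985945 on the minus strand. The paralogs Ythdf1, Ythdf2 and Ythdf3 share the letters ATGTC at the start, as does Mettl3, so 4 of the 9 members with a leader of at least 12 bases had ATGTC, against 8.33% of 8810 genes. All 9 had an A or a G 3 bases before the start codon (ANNATG or GNNATG), which 87.4% of genes had, and both Wtap and Alkbh5, at the bottom of the TE order, were among them. A G directly after the start codon (ATGG) was found in 3 of the 9 and in 53.5% of genes. These matches describe the letters around the start on the sense strand only.

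The chosen transcripts differed in the lengths of their untranslated regions (UTRs). Alkbh5 had a 3′ UTR of 4100 bases, a length that 6.95% of genes reached, and its coding sequence (CDS) made up 20.7% of the transcript. In Mettl3 the 3′ UTR was 144 bases and the CDS took 85.9% of the transcript. Upstream ATG triplets were present in the leaders of 4 of the 9 members, against 50.8% of genes. The Alkbh5 leader held 4 of them, and 11.1% of genes had 4 or more. Wtap, with a leader of 197 bases, a CDS of 1188 bases and a 3′ UTR of 675 bases, had no upstream ATG. The median gene had a leader of 177 bases, a CDS of 1431 bases and a 3′ UTR of 1048 bases. CDS GC content was 62.8% in Alkbh5 and 44.1% in Ythdf3, on either side of a median of 52.6%.

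**Figure D1:**
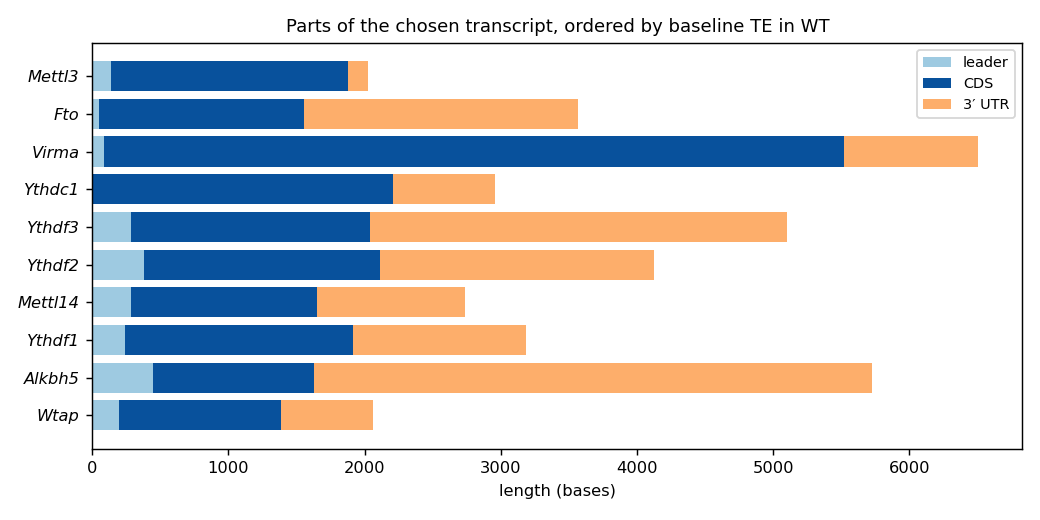
Horizontal bars give the lengths in bases of the leader, CDS and 3′ UTR of the chosen transcript of each of the 10 genes, ordered from the highest (top) to the lowest baseline TE per read in WT liver. Alkbh5 has the longest 3′ UTR of the 10, at 4100 bases, and Virma has the longest CDS, at 5433 bases; the chosen Ythdc1 transcript has no annotated leader.

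Per length, the members spanned a wide range of transcript levels in WT liver. Input was divided by the exon length of the whole gene, so the order depends on that length. It was 13651 bases for Ythdc1, 13031 for Fto, 7419 for Mettl14 and 5076 for Mettl3. Their chosen transcripts had 2960, 3564, 2741 and 2025 bases. Wtap had 830 ± 74.4 normalized input reads per kilobase of exon (SD, n = 3), a level above that of 98.4% of 8973 genes, and Alkbh5 had 117 ± 8.42. Ythdf3 followed at 67.5 ± 2.98, then Ythdf1 at 39.4 ± 3.62 and Ythdf2 at 22.2 ± 4.85, so that the YTHDF readers were above the median gene at 17.3. Virma (15.3 ± 1.93) and Fto (10.8 ± 0.708) were lower. Ythdc1 (6.51 ± 2.15), Mettl3 (5.49 ± 0.775) and Mettl14 (2.72 ± 1.61) were the lowest of the 10. The ranges over the 3 WT mice did not overlap between Wtap, Alkbh5, Ythdf3, Ythdf1 and Ythdf2, each against the next. Below these, the ranges of Ythdf2 and Virma overlapped, as did those of Ythdc1 and Mettl3. On this scale both subunits of the methyltransferase core were thus among the lower genes, with 15.4% of genes below Mettl3 and 3.93% below Mettl14.

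The order of the RPF levels was different. Ythdf3 had 290.5 ± 5.92 normalized RPF reads per kilobase of CDS in WT liver (SD, n = 3) and Fto had 223 ± 16.9, while the next, Ythdf2, had 80.6 ± 10.9. Alkbh5 (66.7 ± 12.9), Ythdf1 (60.5 ± 4.83) and Ythdc1 (58.8 ± 4.07) lay close to the median gene at 53.6, and their ranges over mice overlapped. Mettl3 was at 41.7 ± 2.92, and Virma (31.4 ± 4.64) and Wtap (31.3 ± 8.37) had overlapping ranges. Mettl14 was again lowest, at 17.1 ± 0.658, below the lowest mouse of every other member. Wtap thus went from a higher input level per length than 98.4% of genes to a higher RPF level per length than 36.2% of genes.

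**Figure D2:**
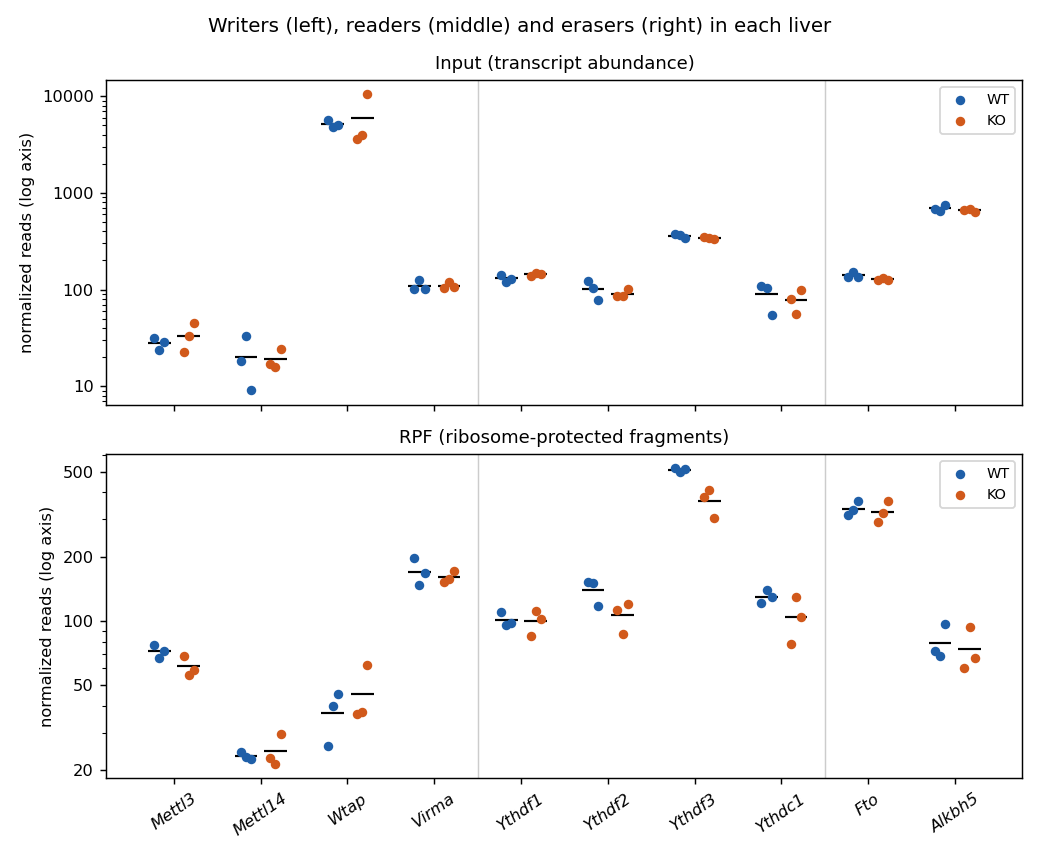
Points are the normalized reads of each gene in each of the 3 WT (blue) and 3 Mettl5 KO (orange) livers on a log axis, with input above and RPF below, and black lines are group means. The reads are not divided by length, so levels may be compared between mice within a gene; in input, KO mouse 3 stands high for Wtap at 10429 reads against 3578 and 3998 in the other KO mice, and in RPF all 3 KO mice lie below the WT mice for Ythdf3.

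Baseline TE in WT liver was measured as the log2 difference between RPF and input after each library was centred on its median gene. A value of 0 means that a gene stood equally far from the median in both assays. On this scale the median of the 8994 genes tested was 0.22, and 58.5% of genes passed a limma adjusted p of 0.05, with 35.4% higher and 23.1% lower than 0. With TE centred on its own median, the split of these calls went from 3185 higher and 2075 lower to 2563 higher and 2577 lower. Of the 10 members, 8 passed, 6 higher and 2 lower, and with TE centred on its own median 7 passed, as Ythdf2 and Ythdc1 lost their calls and Ythdf1 gained one below 0. The members ran from 1.49 to −6.99 with a median of 0.61.

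Among the writers, Mettl3 and Wtap stood at opposite ends. Mettl3 had baseline TE values of 1.41, 1.62 and 1.44 in WT mice 1, 2 and 3, a mean of 1.49 (SE 0.25, limma adjusted p = 4.39e-05), above 92.2% of genes. Its values rested on 15 to 22 input counts and 79 to 141 RPF reads per WT mouse. Virma, the large scaffold of the writer complex, had 1.08, 0.36 and 0.84 (mean 0.76, SE 0.16, limma adjusted p = 0.000461). Mettl14 had 0.51, −0.36 and 1.35 on 7 to 21 input counts, and its mean of 0.50 (SE 0.37) did not pass (limma adjusted p = 0.256). The 3 values of Mettl14 spread more widely than the gap from its mean to those of Virma or the YTHDF readers.

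Wtap had by far the lowest TE of the members. The WT libraries held 3114, 3081 and 3829 input counts of this gene, but 30, 47 and 88 RPF reads. Its baseline TE was −7.60, −6.74 and −6.62 in the 3 mice, a mean of −6.99 (SE 0.39, limma adjusted p = 1.74e-07), and 4 of 8994 genes were lower. KO livers gave a value of −6.76 on the same scale, again with 4 genes lower. Wtap (ENSMUSG00000060475) spans chr17:12966796-12994169 on the minus strand (mm10), where the count file places no gene on the same strand over it. The files give 1 count per gene, so where in the gene the input reads fell was not analysed here, and the cause of the low ratio was not tested.

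Of the readers, Ythdf1 was apart from its paralogs. Ythdf3 had 0.60, 0.57 and 0.71 in the 3 WT mice (mean 0.63, SE 0.14, limma adjusted p = 0.000706) and Ythdf2 had 0.42, 0.67 and 0.72 (mean 0.60, SE 0.20, limma adjusted p = 0.0129). Ythdf1 had −0.25, −0.18 and −0.27, below both paralogs in every WT mouse, and its mean of −0.23 (SE 0.16) did not pass (limma adjusted p = 0.229). With TE centred on its own median, Ythdf1 passed at −0.44 and Ythdf2 no longer passed at 0.39. The nuclear reader Ythdc1 had 0.28, 0.56 and 1.35, a mean of 0.73 (SE 0.26, limma adjusted p = 0.0215). Its call was lost without WT mouse 3, where the value was 0.42, and without WT mouse 2, where it was 0.82.

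The erasers differed from each other. Fto had 1.32, 1.25 and 1.54 in the WT mice, a mean of 1.37 (SE 0.14, limma adjusted p = 1.26e-07), above 89.6% of genes. Alkbh5 had −3.10, −3.11 and −2.82, a mean of −3.01 (SE 0.17, limma adjusted p = 1.40e-10), with 92 of 8994 genes lower. In reads, Fto had 74 to 104 input counts and 360 to 705 RPF reads per WT mouse, whereas Alkbh5 had 372 to 575 input counts and 80 to 187 RPF reads. The order of the demethylases was thus opposite in the 2 assays, since Alkbh5 was above Fto per kilobase in input in all 3 WT mice, and Fto was above Alkbh5 per kilobase in RPF in all 3.

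In the order of baseline TE, Mettl3 and Fto led with overlapping ranges. Fto did not overlap with Virma below it. From Virma through Ythdc1, Ythdf3, Ythdf2 and Mettl14 to Ythdf1, the ranges of neighbours over the WT mice overlapped. Ythdf1 and Alkbh5 did not overlap, nor did Alkbh5 and Wtap. Division by length, with CDS length for RPF and the exon length of the whole gene for input, changed parts of this order. That exon length was 13031 bases for Fto, 13651 for Ythdc1 and 7419 for Mettl14, against 3564, 2960 and 2741 in the chosen transcripts. For Virma it was 7138 against 6506, and for Ythdf1 3316 against 3184. How far this divisor made the changes was not tested. Fto rose to 2.73, above 98.3% of 8973 genes, and Ythdc1 to 1.61. Mettl14 reached 1.19 and passed (limma adjusted p = 0.0106), Virma turned to −0.60 (limma adjusted p = 0.0098), and Ythdf1 went to −0.9996 and passed (limma adjusted p = 4.87e-05). Ythdf2 no longer passed, at 0.25. Wtap (−6.34) and Alkbh5 (−2.43) remained lowest of the 10 and passed on both scales.

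**Figure D3:**
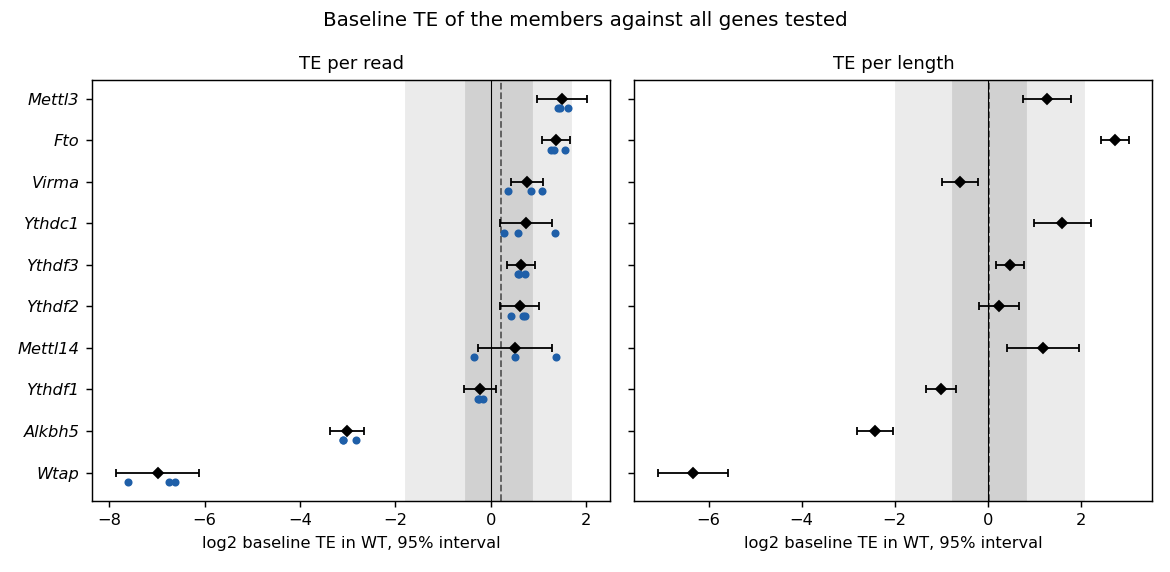
Diamonds are baseline TE in WT liver (log2) with 95% intervals from the limma model, per read at left and per length at right, and blue points at left are the 3 WT mice. Grey bands mark the 5th to 95th and 25th to 75th percentiles of all genes tested and the dashed line their median (0.22 per read and 0.033 per length); Wtap and Alkbh5 lie below the bands on both scales, and Fto leaves the upper band per length at 2.73.

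Whether the loss of METTL5 changed the transcript abundance of these genes was tested on the input counts. In edgeR's quasi-likelihood test, 0 of 10057 genes passed an adjusted p of 0.05 (0% called), with 348 at an unadjusted p under 0.05 and 1 gene called by DESeq2. The members were likewise 0 of 10, with 0 of 10 at an unadjusted p under 0.05 and none called by DESeq2. Their input log2 fold changes ran from −0.14 for Ythdc1 to 0.23 for Mettl3, with a median of −0.058 beside −0.00037 over all genes tested. Intervals were narrow for Ythdf3 (−0.34 to 0.23) and Alkbh5 (−0.34 to 0.22), which have many counts. For Mettl14 the interval was −1.04 to 0.92 and for Wtap −0.98 to 1.44, so changes within those ranges were not excluded. Wtap had more counts than Alkbh5, but its KO mice were widely spread.

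Fto was the only member whose normalized input did not overlap between genotypes, with 136, 152 and 136 reads in WT mice 1, 2 and 3 and 125, 130 and 126 in KO mice. All 3 KO values were below all WT values, as for 5.6% of the 8994 genes (0 members had all KO values above, 3.65% of genes), and the log2 fold change was −0.13 (SE 0.16, edgeR adjusted p = 0.999). Exons of Fto were counted by strand, and the 4 genes annotated on its strand inside its span are a limit on how its reads were assigned, as is Gm43055 on the strand of Ythdc1. Wtap showed the widest spread, with 5712, 4829 and 5021 normalized input reads in WT and 3578, 3998 and 10429 in KO. KO mouse 3 alone was above the WT mice, and without it the log2 fold change went from 0.23 to −0.42. Virma differed little, at 101, 125 and 102 reads in WT and 104, 118 and 107 in KO.

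RPF levels were tested with limma in 1 model over all 12 libraries, on the log2(value + 1) scale, which understates changes of low genes. In this test 44 of 8994 genes passed an adjusted p of 0.05, or 0.489%, and 0 of the 10 members did. Of the members, 8 had negative and 2 had positive RPF log2 fold changes, where 54% of all genes were negative. Their median was −0.094 beside −0.033 over all genes. At an unadjusted p under 0.05 there was 1 member, Ythdf3, against 1205 of all 8994 genes (13.4%). Under every alternative run, leaving out each mouse included, 0 of the 10 passed, and in edgeR on the whole reads 62 genes passed with no member among them.

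Ythdf3 had the largest RPF difference of the members. The WT livers held 518, 498 and 513 normalized RPF reads and the KO livers 381, 412 and 302. All 3 KO mice were below all 3 WT mice, which was so for 12.9% of genes tested. In no member were all 3 above, as in 6.97% of genes. The means were 510 ± 10.4 and 365 ± 56.9 (SD, n = 3), an RPF log2 fold change of −0.49 (SE 0.14, 95% interval −0.78 to −0.21) that did not pass adjustment (limma adjusted p = 0.107, unadjusted p = 0.00185). The differences within litters 1, 2 and 3 were −0.44, −0.27 and −0.76, lower in 3 of 3 litters. The share of all genes that went in 1 direction in all 3 litters was not determined, here or for the genes below. With litter as a replicate block, the adjusted p was 0.0515. Ythdf3 has a GC-poor CDS, and with the GC trend of every library taken out, the change was −0.27 (limma adjusted p = 0.513), so the value moved by over 1.5 times with this correction.

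The input of Ythdf3 was 372, 370 and 344 normalized reads in WT and 348, 342 and 333 in KO, a log2 fold change of −0.059 (SE 0.13, edgeR adjusted p = 0.999). The TE difference was −0.41 (SE 0.19, 95% interval −0.81 to −0.0032), with an unadjusted p of 0.0484 and a limma adjusted p of 0.998. TE per mouse was 0.60, 0.57 and 0.71 in WT and 0.26, 0.39 and −0.037 in KO, so the groups did not overlap. KO values were all below WT values in 2 of the 10 members, Ythdf1 and Ythdf3, and in 7.69% of genes, and all above in 0 members and 5.69% of genes. For TE, 0 of 8994 genes passed (0% called), 423 had an unadjusted p under 0.05, and edgeR on the whole reads gave 0 genes.

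The other cytoplasmic readers differed less, or less regularly. Ythdf2 had 152, 150 and 118 normalized RPF reads in WT and 113, 86.7 and 120 in KO, an RPF log2 fold change of −0.39 (SE 0.20, 95% interval −0.81 to 0.018, limma adjusted p = 0.400). It was lower in KO in litters 1 and 2 and higher in litter 3, KO mouse 3 overlapped with the WT mice, and the change was −0.25 without KO mouse 2. Ythdf1 had 111, 95.6 and 98.0 RPF reads in WT and 85.5, 112 and 102 in KO, a log2 change of −0.027 (SE 0.16, 95% interval −0.37 to 0.31, limma adjusted p = 0.955). Its input was 143, 119 and 130 reads in WT and 139, 149 and 144 in KO. TE of Ythdf1 was −0.56, −0.29 and −0.39 in KO, each below the 3 WT values, with a TE change of −0.17 (SE 0.23, limma adjusted p = 0.998). For Ythdc1 the RPF reads were 121, 139 and 129 in WT and 77.9, 130 and 104 in KO, lower in 3 of 3 litters with overlapping groups (log2 fold change −0.35, SE 0.26, limma adjusted p = 0.599, and −0.13 with the GC trend removed).

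**Figure D4:**
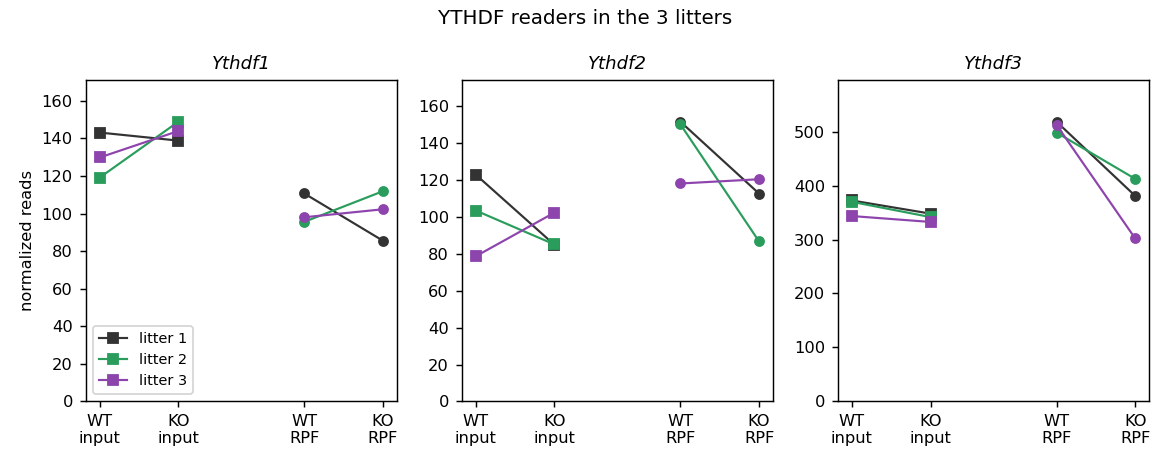
Normalized reads of the 3 YTHDF readers in input (squares) and RPF (circles), with lines joining the WT and KO littermates of each of the 3 litters; all y axes start at 0 and their ranges differ between genes. For Ythdf3 the 3 RPF lines go down, from 498 to 518 reads in WT to 302 to 412 in KO, while the input lines are close to level; the RPF lines of Ythdf1 and Ythdf2 go in both directions.

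In the writers, RPF differences were smaller than their errors in the limma model, which pooled the spread of input and RPF. Within litters, input differences spread more widely than RPF differences in Mettl3, Mettl14 and Wtap, and less widely in Virma. For Mettl3 the log2 differences in litters 1, 2 and 3 were −0.17, −0.26 and −0.29 in RPF and −0.46, 0.48 and 0.62 in input. With the RPF libraries fitted alone, Mettl3 did not pass either (limma adjusted p = 0.597). Mettl3 had 77.5, 67.4 and 72.7 normalized RPF reads in WT and 68.8, 55.9 and 59.3 in KO, lower in 3 of 3 litters but with KO mouse 1 above WT mouse 2 (log2 fold change −0.24, SE 0.25, 95% interval −0.77 to 0.28, limma adjusted p = 0.721). Mettl14 had 24.4, 23.0 and 22.7 in WT and 22.9, 21.5 and 29.6 in KO, a log2 change of 0.064 (SE 0.37, limma adjusted p = 0.955). These 3 WT values lay close together although they came from 27 to 44 reads per mouse. Virma had a log2 fold change of −0.078 (SE 0.16, 95% interval −0.42 to 0.26) and Wtap of 0.28 (SE 0.39, 95% interval −0.61 to 1.16). Wtap had 26.1, 40.1 and 45.4 normalized RPF reads in WT and 36.8, 37.5 and 62.1 in KO, where KO mouse 3 lay above every WT mouse and the others within their range.

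Fto and Alkbh5 had RPF groups that overlapped. Fto had 314, 330 and 364 normalized RPF reads in WT and 291, 321 and 363 in KO, each KO mouse below its littermate, and a log2 change of −0.049 (SE 0.14, 95% interval −0.35 to 0.25, limma adjusted p = 0.911). Its TE was 1.35, 1.42 and 1.62 in KO, higher than in the WT littermate in 3 of 3 litters, with a TE change of 0.10 (SE 0.20, limma adjusted p = 0.998). Alkbh5 had 72.3, 68.3 and 96.4 RPF reads in WT and 60.5, 93.4 and 66.9 in KO, a log2 change of −0.11 (SE 0.17, 95% interval −0.47 to 0.25, limma adjusted p = 0.831). The TE of Alkbh5 in KO, −3.31, −2.72 and −3.12, spanned that in WT, so its low baseline TE was seen in both genotypes. Over the 10 members, TE changes ran from −0.45 for Mettl3 to 0.24 for Wtap, with a median of −0.13 beside −0.011 over all genes.

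**Figure D5:**
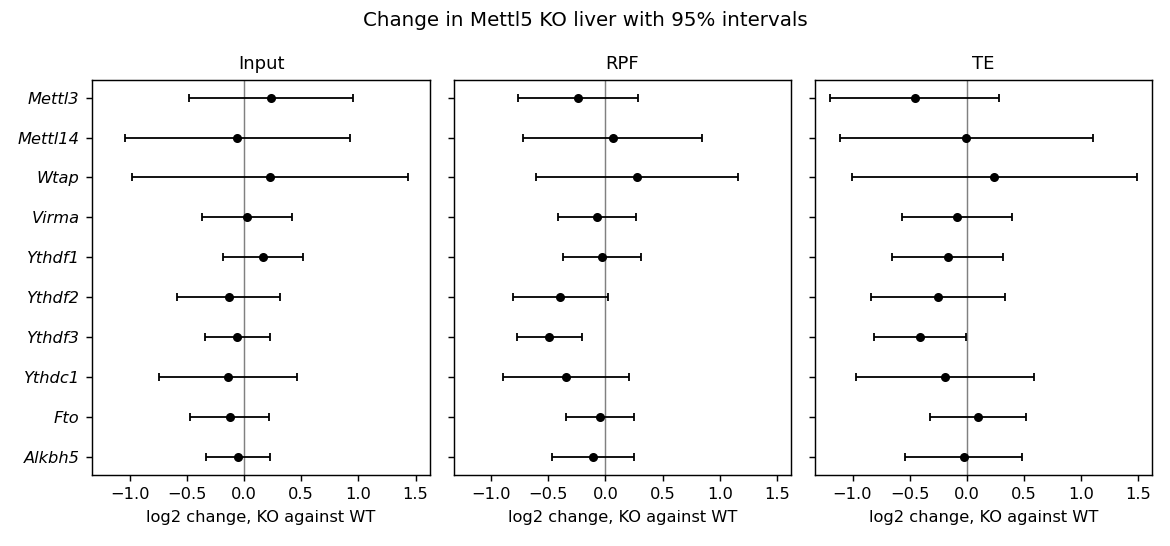
Points are log2 changes in Mettl5 KO against WT liver for the 10 genes in input (edgeR), RPF and TE (limma), with 95% intervals, 3 mice per genotype. The RPF interval of Ythdf3 (−0.78 to −0.21) and its TE interval (−0.81 to −0.0032) leave out 0 before adjustment, and every other interval includes 0; no value passed the adjusted p of 0.05.

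Other genes around this pathway were described by 3 lists. The first held 16 further writer subunits, methyltransferases and readers, of which 13 were tested in each comparison and 0 passed in input, RPF or TE, with 1, 2 and 1 of them at an unadjusted p under 0.05 (3.46%, 13.4% and 4.7% of all genes). Igf2bp1, Igf2bp2 and Igf2bp3, a family of m6A readers that stabilise their targets, were not tested. The smallest RPF p-values in this list were those of Rbm15b, an adaptor that brings the writer complex to RNA, and of Pcif1, which methylates the cap-adjacent adenosine. Rbm15b had 13.9, 20.5 and 8.77 normalized RPF reads in WT and 16.0, 24.6 and 36.3 in KO (log2 fold change 0.79, SE 0.31, limma adjusted p = 0.274), a change that was 0.46 with the GC trend removed, 0.51 without KO mouse 3 and 0.50 without WT mouse 3. Pcif1 had 32.2, 34.98 and 36.1 in WT and 34.8, 62.7 and 52.6 in KO (0.49, SE 0.23, limma adjusted p = 0.368, and 0.31 without KO mouse 2). The median RPF log2 fold change of the list was −0.050. In baseline TE, 4 of the 13 passed as higher and 3 as lower, where all genes gave 35.4% and 23.1%, from 1.01 for Rbmx to −2.14 for Rbm15b.

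The second list held the CCR4-NOT deadenylase, which shortens poly(A) tails of m6A-marked transcripts when recruited by YTHDF2, and Rida, the gene of HRSP12, which links YTHDF2 to RNA cleavage. Of its 12 genes, 0 passed in input, RPF or TE (0, 3 and 0 at an unadjusted p under 0.05, which for RPF held in 13.4% of all genes). Negative RPF log2 fold changes were found in 9 of the 12 and in 54% of all genes, and the median of the list was −0.21. Rida had 9147, 7158 and 7881 normalized RPF reads in WT and 6619, 5517 and 4199 in KO. All 3 KO values were below all WT values, as for 12.9% of the 8994 genes. The log2 fold change was −0.58 (SE 0.16), with a limma adjusted p of 0.094. With the replicate block of litter this change passed (limma adjusted p = 0.0236), and with the GC trend removed as well it did not (−0.46, limma adjusted p = 0.0956). Rida also passed without KO mouse 1, at −0.74 (limma adjusted p = 0.0227). Cnot1, the scaffold of the complex, had 510, 456 and 472 RPF reads in WT and 339, 380 and 380 in KO (−0.39, SE 0.13, limma adjusted p = 0.172, and −0.21 with the GC trend removed). In baseline TE, 5 of the 12 passed as higher and 4 as lower (35.4% and 23.1% of all genes), with Rida highest at 2.29 and the deadenylase subunit Cnot6 lowest at −2.76.

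The third list covered the supply of S-adenosylmethionine, the methyl donor of every RNA methyltransferase, in 11 genes. None passed in input, RPF or TE by limma or edgeR, with 1 of the 11 at an unadjusted p under 0.05 in RPF (13.4% of all genes), and the median RPF log2 fold change was −0.034. Leaving out 1 mouse gave 1 RPF call in 2 fits, Bhmt without KO mouse 1 (0.63, limma adjusted p = 0.0304) and Ahcy without WT mouse 1 (−2.20, limma adjusted p = 0.000575), both named after their values were seen. Gnmt, a liver enzyme that consumes the donor, had 15330, 16431 and 15441 normalized RPF reads in WT and 16497, 27351 and 20089 in KO (0.41, SE 0.19, limma adjusted p = 0.356), a change that was 0.27 with the GC trend removed and 0.21 without KO mouse 2. Mat2a, which makes the donor and whose mRNA is itself an m6A target, had 311, 311 and 319 in WT and 248, 291 and 210 in KO (−0.34, SE 0.16, limma adjusted p = 0.376), a change that was −0.16 with the GC trend removed and −0.22 without KO mouse 3. In baseline TE, 6 of the 11 passed as higher and 2 as lower (35.4% and 23.1% of all genes). Gnmt was highest at 1.90 and Ahcy lowest at −5.56, but Ahcy had 1, 81 and 76 RPF reads in the WT mice, so its value is uncertain. Whether copies of Ahcy elsewhere in the genome affected its RPF reads was not tested.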

How the data were processed

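The data were 6 input and 6 RPF libraries, 1 of each from every mouse. Per the labels and the study's methods, the authors trimmed reads, aligned input reads to mm10 with STAR 2.7.3a, kept unique reads and counted exons by strand with featureCounts, giving the deposited input counts per gene. The authors mapped RPF reads with RiboToolkit. Which part of a gene RPF reads were counted over is not given in the sources used here. The deposited table of normalized signal, called RPKM, holds reads divided by 1 factor per library: 100% of values in each column were whole multiples of 1 read (tolerance 0.01), and no gene length enters. The authors' deposited table also holds log2 fold changes and p-values of TE, which were not used. It lists no gene without a read in some library.

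Input was tested with edgeR 4.0.16 in R 4.3.3 (TMM, filterByExpr, robust quasi-likelihood). RPF, TE and baseline TE were tested with limma 3.58.1 (trend, robust) on log2(value + 1) for genes whose mean was 10 or more in both assays, with 4 group means and libraries taken as independent. All 10 members passed both filters. All tests were two-sided with Benjamini-Hochberg adjustment over all genes tested. edgeR was also run on the whole reads recovered. Each gene was given 1 coding transcript of GENCODE M21: APPRIS principal in the basic set, with a leader of at least 12 bases where there was one, then the longest CDS.

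The shared numbers of the labels mark littermates. Deviations from group means correlated between littermates, by 0.0816, 0.100 and 0.127 over the input pairs and by 0.144, 0.195 and 0.242 over the RPF pairs. Between mice of different litters the correlations were −0.117 to 0.0169 in input and −0.239 to 0.0813 in RPF. Deviations from a mean of 3 mice sum to 0, so these correlations are not independent. The study states no litter term, so the block was an alternative. Replicates differed beyond sampling noise (chi-square per degree of freedom 5.75 to 42.9), and p-values rest on the spread between mice of a genotype. In limma this spread was pooled over both genotypes and over input and RPF. Noise of a gene in input therefore entered the error of its RPF change, and the reverse. Alternatives covered other filters, pseudocounts, scalings, tools, blocks, removal of a spline trend with CDS GC content, and leaving out each mouse. Fits were tested on simulated data.

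The members, lists and rules were chosen with earlier results of these data known. Named were the members and Mettl5, the 2 genes of each other list with the smallest RPF p-value, and its highest and lowest baseline TE.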

Additional observations from a re-analysis of the deposited data

How the results depend on the processing

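Of 639 values of single members under alternatives, 575 stayed on the same side of the threshold with the same sign, 43 reversed, 15 lost a call and 6 gained one, and in input, RPF and TE change 0 of the 10 members passed under any alternative run. Depth was lowest for Mettl14 and Mettl3 in input and for Mettl14 and Wtap in RPF, and where a cause is not given it was not tested. For all genes, the input count of 0 became 1 with DESeq2, 2 with limma on the table and 30 with no count filter, and 0 to 21 when each mouse was left out (KO mouse 2 out, 21; KO mouse 3 out, 5; WT mouse 3 out, 2). The RPF count of 44 became 144 at an adjusted p of 0.1, 10 with the GC trend removed, 23 with RPF columns alone and 0 to 228 when each mouse was left out (KO mice 1, 2 and 3 out gave 228, 0 and 11, and WT mice 1, 2 and 3 out gave 28, 9 and 16). With the replicate block of litter, input gave 2 genes, RPF 236 and TE 1, and TE also 1 with the block and the GC trend removed; the block changed no call of a member.

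Requiring a mean of 50 in both assays left 3236 genes and 5 members past the threshold in baseline TE. Mettl3, Mettl14 and Wtap were then not tested, and Ythdf1 gained a call under this requirement. Ythdf2 and Ythdc1 lost their baseline TE calls under it, in the KO mice, in edgeR on whole reads, with TE centred on its median (an alternative chosen after the data were seen), and without WT mouse 2 or 3, Ythdf2 also per length and Ythdc1 also with columns not centred. In the KO mice Ythdf3 also lost its call, at 0.21, and Ythdf1 gained one, at −0.41. Reversed were, in input, Mettl14 at 0.066 by limma and 0.0094 with the replicate block. In RPF, Virma was at 0.096 and Ythdf1 at 0.012 with the GC trend removed, with or without the block, and Ythdf1 at 0.022 in edgeR. In TE, Mettl14 was at 0.13 and Virma at 0.046 with the GC trend removed, with or without the block, and Mettl14 at 0.17 in edgeR and 0.024 with a pseudocount of 5. Baseline TE of Virma per length was −0.60.

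When each mouse was left out, sign changes came in these ranges. In input, Mettl3 ran from −0.0059 to 0.50, Mettl14 from −0.44 to 0.51, Wtap from −0.42 to 0.50, Virma from −0.026 to 0.13, Ythdf2 from −0.30 to 0.019, Ythdc1 from −0.41 to 0.045 and Alkbh5 from −0.10 to 0.00079. In RPF, Mettl14 ran from −0.070 to 0.15, Virma from −0.18 to 0.031, Ythdf1 from −0.11 to 0.079, Fto from −0.13 to 0.028 and Alkbh5 from −0.29 to 0.041. In TE, Mettl14 ran from −0.44 to 0.42, Wtap from −0.059 to 0.49, Virma from −0.29 to 0.078, Ythdc1 from −0.59 to 0.12 and Alkbh5 from −0.19 to 0.11.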
